A study of Papio anubis and Macaca mulatta with 6 samples.

Results

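Endothelial cells of the prepubertal testis were taken as all barcodes with at least 1000 unique molecular identifiers (UMIs) in which at least 3 of 10 endothelial genes had a UMI. These genes were VWF, CLDN5, EGFL7, CDH5, SOX18, KDR, FLT1, TIE1, ESAM and PECAM1. In all, 843 of 44341 barcodes met the rule (1.90%), 298 of 21693 in the baboon (1.37%) and 545 of 22648 in the rhesus monkey (2.41%). Because measured counts of these 10 genes chose the barcodes, their levels are a description and were not tested. All other barcodes with at least 1000 UMIs were the comparison.

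The cells came from testes of 2 baboons (Papio anubis) and 2 rhesus monkeys (Macaca mulatta), all untreated and all obtained at necropsy. The tissue was digested with collagenase and, after a wash meant to remove interstitial cells, with trypsin, so that the vessel cells are those left after this wash. Of the 6 libraries of the 10x Genomics 3′ kit, 1A and 1B came from baboon 1, 1 from baboon 2, 1 from rhesus monkey 1, and 2A and 2B from rhesus monkey 2, and only that of baboon 2 was made with version 3 of the chemistry in place of version 2. The text deposited with the data gives ages of 15 and 20 months for the baboons and of newborn and 26 months for the rhesus monkeys, and no age was used here. The paper assigns these ages to the species the other way round, so they cannot be settled. Libraries held between 16875294 and 49803025 UMIs. The median endothelial barcode was deeper than the others, with 4365 against 2145 UMIs in the baboon and 3298 against 1617 in the rhesus monkey. Counts were added up over the libraries of each animal (n = 2 per species), and p-values measure the spread between 2 animals.

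Endothelial cells line blood and lymphatic vessels. Their identity rests on ETS, SOX and GATA transcription factors, on VEGF and angiopoietin receptors that sense growth signals, and on Notch ligands that set arterial fate. In the testis, vessels run between the seminiferous tubules and do not enter them. There the endothelium brings gonadotropins and nutrients to the tubules, carries testosterone away, and is a known source of growth factors for spermatogonia.

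To show sequence next to genes that were high together in the endothelial barcodes, the 250 bases before the gene start of EMCN, CLDN5 and TIE1 are given 5′ to 3′ on the strand of the gene, from RefSeq on the rhesus build Mmul_10. EMCN, a mucin-like glycoprotein of capillary and venous endothelium, lies on the minus strand, and its window is chr5:98880759-98881008. CLDN5, the main claudin of endothelial tight junctions, lies on the plus strand, and its window is chr10:33122631-33122880. TIE1, a receptor of the angiopoietin system, lies on the minus strand, and its window is chr1:181161636-181161885. Capitals mark an ETS core (AGGAAG or its reverse complement CTTCCT) and a SOX core (ACAAT or ATTGT). These 3 genes were picked, after the sequences had been seen, because each window holds both cores. CLDN5 and TIE1 are genes of the rule, so their high levels in the endothelial barcodes follow from the choice of barcodes.
EMCN: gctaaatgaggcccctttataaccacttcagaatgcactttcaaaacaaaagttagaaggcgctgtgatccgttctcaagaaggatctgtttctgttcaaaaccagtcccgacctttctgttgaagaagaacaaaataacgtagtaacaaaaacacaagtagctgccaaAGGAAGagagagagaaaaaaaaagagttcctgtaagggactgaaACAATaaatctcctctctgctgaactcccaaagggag
CLDN5: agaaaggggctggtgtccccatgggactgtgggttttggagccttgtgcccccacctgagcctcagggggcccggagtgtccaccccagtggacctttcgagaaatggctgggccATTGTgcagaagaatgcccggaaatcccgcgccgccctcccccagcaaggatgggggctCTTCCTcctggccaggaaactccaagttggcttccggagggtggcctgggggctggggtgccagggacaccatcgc
TIE1: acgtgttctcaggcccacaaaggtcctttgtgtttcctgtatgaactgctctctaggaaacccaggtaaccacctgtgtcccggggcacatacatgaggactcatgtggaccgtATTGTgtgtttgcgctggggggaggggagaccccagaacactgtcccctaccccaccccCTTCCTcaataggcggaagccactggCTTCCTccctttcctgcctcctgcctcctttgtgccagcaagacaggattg
The windows of EMCN and CLDN5 had 1 ETS and 1 SOX match each, and that of TIE1 had 2 ETS matches and 1 SOX match. Of 20768 windows of protein-coding genes, 25.7% held the ETS core and 22.4% the SOX core. Among 30 pan-endothelial genes the shares were 30.0% and 53.3%, among 24 endothelial transcription factor genes 25.0% and 25.0%, and among 12 Sertoli genes 8.33% and 33.3%, while 5 of the 10 windows of the rule genes held each core. The GATA core AGATAA, searched on both strands, was in 8.4% of all windows and in 6.67% of the pan-endothelial ones. A match describes the letters of these windows and is not a binding site.

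The genes of the rule marked the chosen barcodes, as the choice requires. In the baboon, VWF, which carries clotting factor VIII and tethers platelets, stood at 843 and 825 counts per 1000000 UMIs (CPM) in the endothelial barcodes of animals 1 and 2 and at 1.59 and 0.825 CPM in the others. It had a UMI in 83.6% of endothelial barcodes, in 0.365% of the others and in 0.377% of barcodes with at least 3 Sertoli genes, whose median depth was 2232 UMIs in animal 1 and 4889 in animal 2. In the rhesus monkey, VWF stood at 587 and 792 CPM against 1.45 and 8.41 CPM, and had a UMI in 76.5% of endothelial barcodes, 0.805% of the others and 0.879% of Sertoli barcodes, whose median depth was 1760 and 1914.5 UMIs. For VWF, the share in other barcodes was about that in Sertoli barcodes. The Sertoli barcodes are part of the others, and the rule kept barcodes with 3 or more rule genes out of both. The likeness is thus a description, and the part of free RNA in these shares was not tested. EGFL7, a secreted protein of the vessel wall, stood at 874 and 1264 CPM against 3.15 and 7.22 CPM in the baboon and at 705 and 1326 CPM against 26.5 and 34.5 CPM in the rhesus monkey, and had a UMI in 96.6% of baboon endothelial barcodes. When each gene was left out of the rule in turn, the share of barcodes chosen by the other 9 that held it was from 36.4% (KDR) to 96.1% (EGFL7) in the baboon, and from 17.0% (FLT1) to 95.4% (EGFL7) in the rhesus monkey, apart from CDH5 and SOX18 at 0.734% each.

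CDH5 and SOX18 were measured in baboon endothelial barcodes and hardly at all in rhesus ones. CDH5, the endothelial cadherin, stood at 163 and 153 CPM in baboon endothelial barcodes, but at 0 and 1.86 CPM in rhesus ones. SOX18, a transcription factor of vessel and lymphatic development, stood at 580.4 and 622 CPM in the baboon and at 0 and 1.86 CPM in the rhesus monkey, where 4 of 545 barcodes had a UMI (0.734%). The rule therefore rested on 8 genes in the rhesus monkey. Annotation and species cannot be told apart here. The VEGF receptors of the rule were found in both species, with KDR at 101 and 144 CPM in the baboon and 236 and 187 CPM in the rhesus monkey, and FLT1 at 124 and 126 CPM and at 125 and 44.8 CPM.

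Pan-endothelial genes that the rule did not use were higher in barcodes with more rule genes. Their summed level was 386 CPM in the 71 baboon barcodes with 2 rule genes and 1116 CPM in the 49 with 3, just outside and just inside the threshold. In the rhesus monkey it was 1234 CPM in 123 barcodes with 2 and 4312 CPM in 83 with 3. With 5 or more rule genes it was 9084 CPM in the baboon and 9013 CPM in the rhesus monkey, against 306 and 591 CPM with none. The lowest levels among members were thus those of the 49 baboon barcodes with exactly 3 rule genes.

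**Figure D1:**
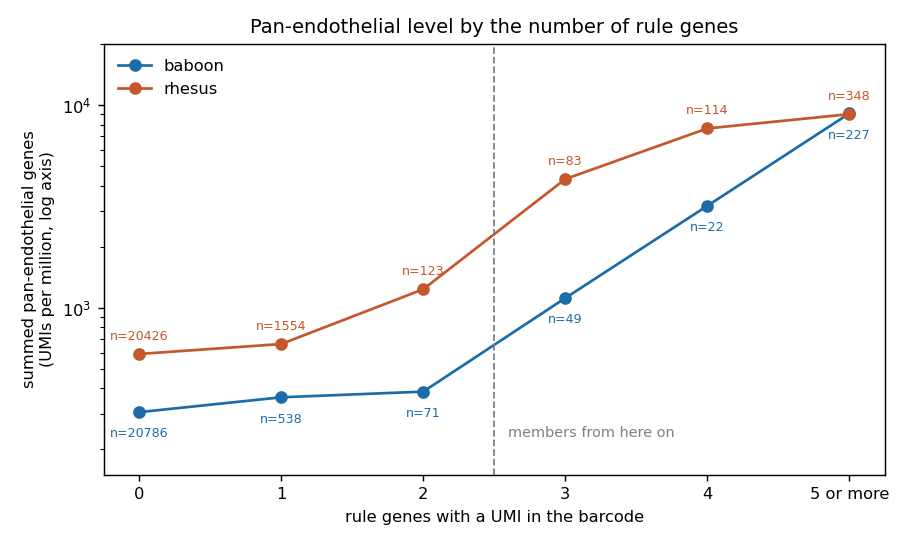
Summed level of the pan-endothelial genes that the rule did not use (CPM, log axis) by the number of rule genes with a UMI in a barcode, for each species, with the number of barcodes at each point and a dashed line at the threshold. The level was 386 CPM with 2 genes and 1116 CPM with 3 in the baboon, 1234 and 4312 CPM in the rhesus monkey, and 9084 and 9013 CPM with 5 or more.

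A small set of members went against the label. In the baboon, 27 of the 298 barcodes (9 and 18 per animal) held UMIs of at least 3 genes of a germ cell list, and 21 of them had exactly 3 rule genes. Their median depth was 18577 UMIs, their summed germ gene level 1935 CPM and their summed pan-endothelial level 638 CPM, whereas the other 271 had 4012 UMIs, 28.5 CPM and 9115 CPM. Of the 27 germ-rich barcodes, 26 held EGFL7, 17 SOX18 and 17 FLT1, and 3 held CLDN5. The rhesus monkey had 6 such barcodes (2 and 4 per animal), with a median of 27846.5 UMIs, 783 CPM of germ genes and 165 CPM of pan-endothelial genes. Results that rest on these barcodes are given with and without them, a choice made after seeing the data. In all, 133 baboon members (44.6%) and 247 rhesus members (45.3%) held UMIs of at least 3 genes of the list of some other cell type, germ cells included, and no barcode was removed as a doublet. By animal the shares were 36.4 and 52.3% in the baboons and 70.8 and 42.9% in the rhesus monkeys.

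The share of endothelial barcodes differed between the animals of a species. It was 1.01% in baboon 1 (143 of 14146, exact 95% binomial interval 0.853 to 1.19%) and 2.05% in baboon 2 (155 of 7547, 1.75 to 2.40%). It was 0.461% in rhesus monkey 1 (48 of 10403, 0.340 to 0.611%) and 4.06% in rhesus monkey 2 (497 of 12245, 3.72 to 4.42%), where libraries 2A and 2B gave 4.19% and 3.92%. The mean was 1.53% ± 0.737 (SD, n = 2) in the baboon and 2.26% ± 2.54 (SD, n = 2) in the rhesus monkey, and the species overlapped, since the rhesus animals lay on both sides of the baboons. After 1000 UMIs had been drawn from each barcode, the shares were 0.672 and 1.41% in the baboons and 0.183 and 2.55% in the rhesus monkeys, in the same order. In the baboon, animal and version of the chemistry cannot be told apart. Intervals cover counting error only. What the digestion released and how many vessel cells the tissue held cannot be told apart in such a share. Library pairs of the same chemistry shared barcode sequences at about the number that the product of their sizes gives (57 against 62.1 for 1A and 1B, 67 against 50.8 for 2A and 2B), and 1 sequence, shared by libraries of different species (baboon 1B and rhesus 2A), was a member in both.

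Endothelial and other barcodes were compared as sums per animal with the quasi-likelihood test of edgeR, and a gene was called at an adjusted p under 0.05. In the baboon, 1445 of 16563 genes were called higher (8.72%) and 907 lower (5.48%), and in the rhesus monkey 441 of 12627 were called higher (3.49%) and 304 lower (2.41%). Fitted with the animal as a block, 5873 and 2239 genes were called in place of 2352 and 745, and without the germ-rich barcodes 1935 and 999. DESeq2 called 2977 and 976. At an unadjusted p under 0.05 by edgeR there were 4951 (29.9%) and 2278 (18.0%). List counts given for these settings below stand against these totals, which cover both directions. The median log2 fold change of all genes was -0.14 in baboons and -0.07 in the rhesus monkey, the level against which medians of gene lists stand. Over the 10167 symbols tested in both species, 304 were called higher in both, which is 33.9% of the baboon's 896 and 81.5% of the rhesus monkey's 373. Likewise 143 were called lower in both, 21.1% of 678 and 55.2% of 259.

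The pan-endothelial genes outside the rule were higher almost without exception. In the baboon, 35 of 36 tested were called higher with a median log2 fold change of 7.29, and in the rhesus monkey 26 of 31 with a median of 6.05. Without the germ-rich barcodes, 36 and 28 were. ADGRL4, an adhesion receptor of growing vessels, stood at 303 and 273 CPM in baboon endothelial barcodes and at 0.549 and 0.212 CPM in the others (log2 fold change 9.30 ± 0.57 SE, adjusted p = 0.000452, edgeR). In the rhesus monkey it stood at 361 and 426 CPM against 0.653 and 2.86 CPM (log2 fold change 7.78 ± 0.70 SE, adjusted p = 0.0013, edgeR). Both endothelial sums lay far above both others in each species. CD93, a lectin-like receptor of vessel sprouting, was at 265 and 239 CPM against 0.289 and 0.424 CPM in the baboon (log2 fold change 9.19 ± 0.38 SE, adjusted p = 0.000258, edgeR) and at 361 and 484 CPM against 2.43 and 4.79 CPM in the rhesus monkey (log2 fold change 6.83 ± 0.51 SE, adjusted p = 0.000928, edgeR). EMCN, whose upstream window is printed above, was at 308 and 253 CPM against 0.578 and 0.236 CPM in the baboon (log2 fold change 9.17 ± 0.57 SE, adjusted p = 0.000455, edgeR) and at 260.4 and 203 CPM against 1.17 and 1.70 CPM in the rhesus monkey (log2 fold change 7.23 ± 0.44 SE, adjusted p = 0.000928, edgeR). PTPRB, the phosphatase that restrains TEK, was at 126 and 183 CPM against 0.202 and 0.377 CPM and at 10.4 and 23.8 CPM against 0.0934 and 0.268 CPM (log2 fold changes 8.77 and 6.59). None of these groups overlapped, though PTPRB had only 3 UMIs in the endothelial sum of rhesus monkey 1. Because such genes were named for their large fold changes, a lack of overlap is a description, here and for the genes below. The share of all genes without overlap is not given.

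Some genes of the list could not be read or were not called. PLVAP, which forms the diaphragms of fenestrated endothelium, was not tested in either species and had 0 UMIs in rhesus endothelial barcodes. CD34, a sialomucin of vessels and blood progenitors, had 0 UMIs in baboon endothelial barcodes and stood at 875 and 1406 CPM against 42.7 and 116 CPM in the rhesus monkey (log2 fold change 3.84 ± 0.55 SE, adjusted p = 0.00634, edgeR). NOSTRIN, which binds endothelial nitric oxide synthase, was not called in either species, at 163 and 259 CPM against 81.2 and 112 CPM in the baboon (log2 fold change 0.88 ± 0.30 SE, adjusted p = 0.103, edgeR) and 167 and 186 CPM against 104 and 58.3 CPM in the rhesus monkey (log2 fold change 1.00 ± 0.44 SE, adjusted p = 0.275, edgeR). RAMP2, ENG, LYL1 and STAB1 were called in the baboon but not in the rhesus monkey, and the difference between the species was called by edgeR for none of the 4 (adjusted p 0.283 for RAMP2, 0.728 for ENG, 0.825 for LYL1 and 0.414 for STAB1). With animal as a block, NOSTRIN was called in both species (adjusted p 0.000209 and 0.00145, edgeR), and so were RAMP2 (2.24e-06), ENG (1.35e-07), LYL1 (5.72e-05) and STAB1 (0.0378) in the rhesus monkey.

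**Figure D2:**
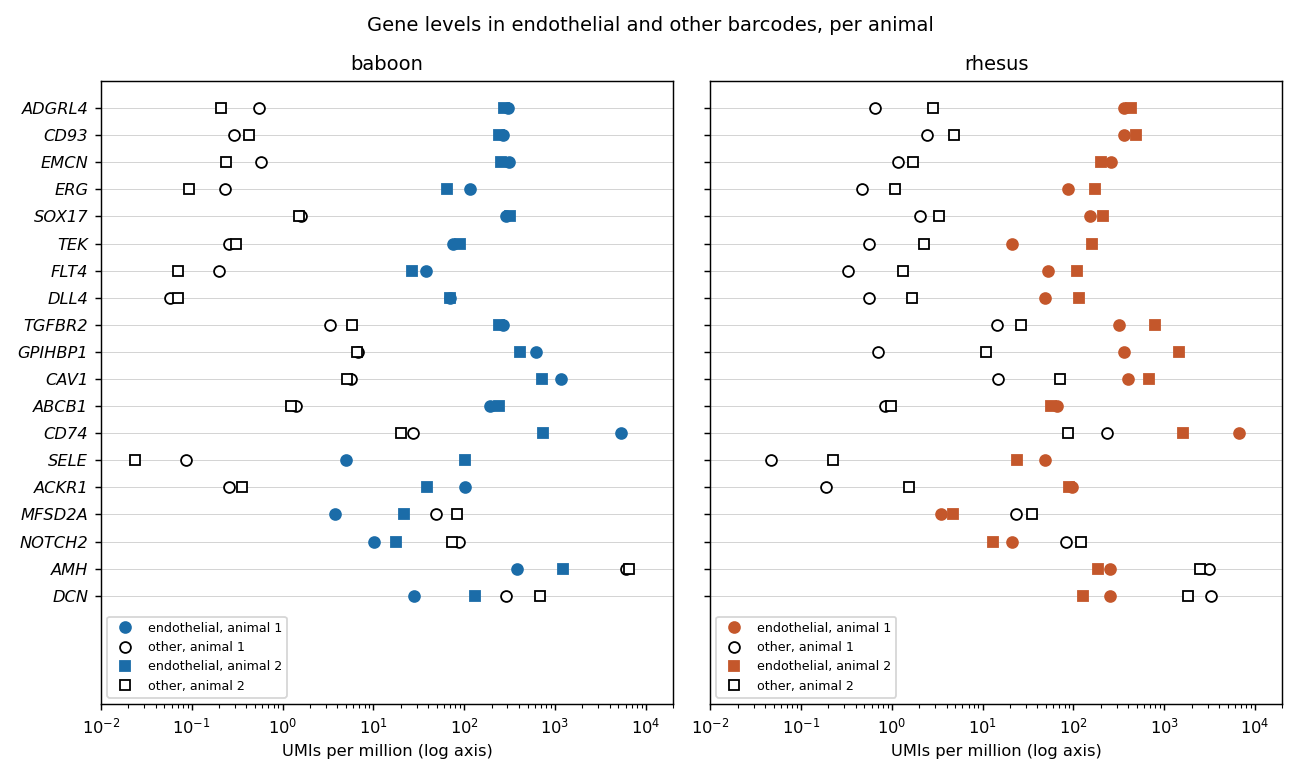
Levels of 19 named genes (CPM, log axis) in endothelial barcodes (filled) and other barcodes (open) of animal 1 (circles) and animal 2 (squares) of each species. Genes from ADGRL4 to ACKR1 were higher in both endothelial sums than in both other sums, those from MFSD2A to DCN were lower, and the endothelial sums of CD74 differed between the animals of each species.

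Transcription factors of endothelial identity were called higher in 21 of 28 tested in baboons and in 15 of 24 in the rhesus monkey, with median log2 fold changes of 4.58 and 3.42. ERG, an ETS factor that maintains endothelial identity, was at 116 and 64.6 CPM against 0.231 and 0.0943 CPM in the baboon (log2 fold change 8.85 ± 0.62 SE, adjusted p = 0.000651, edgeR) and at 86.8 and 173 CPM against 0.467 and 1.07 CPM in the rhesus monkey (log2 fold change 7.39 ± 0.62 SE, adjusted p = 0.0011, edgeR). FLI1, a related ETS factor, was at 106 and 94.8 CPM against 0.318 and 0.401 CPM and at 128 and 261 CPM against 1.73 and 2.24 CPM (log2 fold changes 7.85 and 6.60). SOX17, a SOX factor of arterial fate, was at 288 and 321 CPM against 1.62 and 1.53 CPM and at 153 and 212 CPM against 2.05 and 3.31 CPM (log2 fold changes 7.34 and 6.05). In all 3, every endothelial sum was above every other sum. GATA2 and MECOM, factors of blood and vessel development, were called higher in both species, with log2 fold changes of 6.70 and 5.80 for GATA2 and of 8.11 and 6.28 for MECOM. GATA2 had only 2 UMIs in the endothelial sum of rhesus monkey 1. KLF2, known for its response to blood flow, was not called, at 1047 and 839 CPM against 222 and 598 CPM in the baboon (log2 fold change 0.99 ± 0.45 SE, adjusted p = 0.197, edgeR) and 3.47 and 7.46 CPM against 8.26 and 3.62 CPM in the rhesus monkey. NR2F2, which sets venous fate and is also expressed by interstitial cells, was not called either, at 136 and 127 CPM against 41.0 and 131 CPM in the baboon and 135 and 118 CPM against 150.5 and 258 CPM in the rhesus monkey. In the block fit by animal, both were called in the baboon (adjusted p 6.65e-06 for KLF2 and 0.0379 for NR2F2, edgeR).

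In the list of VEGF and angiopoietin signaling, 8 of 16 were called higher in baboons and 5 of 12 in the rhesus monkey, with ANGPTL4 called lower in the rhesus monkey, and the list medians (log2 fold change) were 2.17 and 1.29. TEK, the angiopoietin receptor, was at 74.5 and 90.6 CPM against 0.260 and 0.307 CPM in the baboon (log2 fold change 7.91 ± 0.37 SE, adjusted p = 0.000258, edgeR) and at 20.8 and 161 CPM against 0.560 and 2.28 CPM in the rhesus monkey (log2 fold change 6.14 ± 0.97 SE, adjusted p = 0.00894, edgeR). FLT4, the receptor of VEGFC, was at 37.9 and 26.9 CPM against 0.202 and 0.0707 CPM and at 52.1 and 109 CPM against 0.327 and 1.34 CPM (log2 fold changes 7.60 and 6.63). ANGPT2, the ligand that destabilizes vessels, was called higher in the baboon, at 20.2 and 30.2 CPM against 0.664 and 1.91 CPM (log2 fold change 4.06 ± 0.63 SE, adjusted p = 0.00976, edgeR), and not in the rhesus monkey, at 0 and 11.2 CPM against 4.06 and 8.81 CPM. VEGFA, the main VEGF ligand, was not called, at 1.26 and 5.04 CPM against 4.25 and 10.5 CPM in the baboon and 6.94 and 3.26 CPM against 4.53 and 6.58 CPM in the rhesus monkey.

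In Notch signaling, DLL4 and JAG2 were called higher in both species and NOTCH2 lower. Of this list, 8 of 16 were called higher and 1 lower in the baboon, and 4 and 1 of 14 in the rhesus monkey. Fitted with the animal as a block, 4 and 2 were called lower. The medians were 2.06 and 1.15. DLL4, the ligand of arterial and tip cells, was at 70.7 and 70.5 CPM against 0.0578 and 0.0707 CPM in the baboon (log2 fold change 9.71 ± 0.43 SE, adjusted p = 0.000258, edgeR) and at 48.6 and 116 CPM against 0.560 and 1.66 CPM in the rhesus monkey (log2 fold change 6.26 ± 0.67 SE, adjusted p = 0.00225, edgeR). JAG2, a second ligand, was at 35.3 and 48.7 CPM against 1.16 and 1.65 CPM and at 76.4 and 74.6 CPM against 11.6 and 6.71 CPM (log2 fold changes 4.66 and 2.92). MFNG, a glycosyltransferase that tunes Notch receptors, was called higher in both (log2 fold changes 5.86 and 5.19), and so was NOTCH4, an endothelial receptor, in the rhesus monkey (4.92). NOTCH4 had only 1 and 23 UMIs in the endothelial sums of rhesus monkeys 1 and 2. NOTCH2 was called lower in both, at 10.1 and 17.6 CPM against 87.5 and 74.3 CPM in the baboon (log2 fold change -2.78 ± 0.36 SE, adjusted p = 0.00546, edgeR) and at 20.8 and 13.1 CPM against 83.3 and 122 CPM in the rhesus monkey (log2 fold change -2.79 ± 0.42 SE, adjusted p = 0.00741, edgeR). In each species both endothelial sums of NOTCH2 lay below both others.

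For BMP and TGF-beta signaling, 7 of 15 genes were called higher and 1 lower in the baboon, and 3 and 1 of 13 in the rhesus monkey. With animal as a block, 11 and 7 were called higher and 2 and 2 lower. Without germ-rich barcodes the counts of higher and lower genes were 10 and 2, and 6 and 2. With all members the medians were 1.59 and 1.25. TGFBR2, the receptor that binds TGF-beta, was at 270 and 242 CPM against 3.29 and 5.80 CPM in the baboon (log2 fold change 5.58 ± 0.37 SE, adjusted p = 0.000522, edgeR) and at 319 and 793 CPM against 14.3 and 26.6 CPM in the rhesus monkey (log2 fold change 4.76 ± 0.59 SE, adjusted p = 0.00402, edgeR). ACVRL1, the endothelial receptor of BMP9, and SMAD1, which carries BMP signals to the nucleus, were also called higher in both, with log2 fold changes of 3.16 and 3.31 for ACVRL1 and of 4.57 and 4.18 for SMAD1. ID3, a BMP target, was at 944 and 1192 CPM against 45.4 and 76.2 CPM in the baboon (log2 fold change 3.90 ± 0.35 SE, adjusted p = 0.00169, edgeR) and was not called in the rhesus monkey, at 364 and 327 CPM against 135 and 96.9 CPM (adjusted p = 0.0671, and 6.91e-06 with the animal as a block, edgeR). BMPR1A, a BMP receptor found in many cell types, was called lower in both, at 12.6 and 15.9 CPM against 71.5 and 57.6 CPM and at 3.47 and 2.33 CPM against 20.3 and 35.0 CPM (log2 fold changes -2.43 and -3.45). Its rhesus endothelial sums held only 1 and 5 UMIs.

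Genes of arteries, veins and capillaries were each among those called higher. Of the arterial list 8 of 12 were called higher in baboons and 8 of 12 in the rhesus monkey, of the venous list 6 of 10 and 4 of 9, and of the capillary list 5 of 11 and 4 of 12. In the block fit by animal, 10 of 10 venous genes were called higher in the baboon, while for the rhesus monkey 4 were higher and 3 lower. Of the arterial genes, this fit called 9 higher and 2 lower in each species. List medians for baboon and rhesus were 4.19 and 3.05 for arterial, 3.85 and -0.76 for venous and 2.26 and 0.61 for capillary genes, so that the rhesus venous median lay below 0 although 4 of its genes were called higher. EFNB2, the arterial ephrin, was at 104 and 108 CPM against 2.71 and 1.56 CPM in the baboon (log2 fold change 5.36 ± 0.42 SE, adjusted p = 0.000969, edgeR) and at 20.8 and 71.8 CPM against 3.22 and 2.55 CPM in the rhesus monkey (log2 fold change 4.09 ± 0.62 SE, adjusted p = 0.00769, edgeR). GJA4, an arterial connexin, was at 145 and 134 CPM against 4.82 and 4.53 CPM and at 41.7 and 58.3 CPM against 2.24 and 7.87 CPM (log2 fold changes 4.65 and 3.35). These arterial genes were high in both animals of each species.

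Among venous genes, ACKR1, the chemokine receptor of venules, was at 102 and 39.4 CPM against 0.260 and 0.354 CPM in the baboon (log2 fold change 7.57 ± 0.64 SE, adjusted p = 0.00128, edgeR) and at 97.2 and 88.6 CPM against 0.187 and 1.56 CPM in the rhesus monkey (log2 fold change 6.68 ± 0.78 SE, adjusted p = 0.00301, edgeR). SELE, the selectin of activated endothelium, was at 5.05 and 102 CPM against 0.0866 and 0.0236 CPM in the baboon (log2 fold change 9.59 ± 1.45 SE, adjusted p = 0.00889, edgeR) and at 48.6 and 23.8 CPM against 0.0467 and 0.224 CPM in the rhesus monkey (log2 fold change 7.78 ± 0.82 SE, adjusted p = 0.00225, edgeR), so that baboon 2 was far above baboon 1. APLNR, the apelin receptor of veins, had among the widest gaps in the baboon, at 235 and 211 CPM against 0.116 and 0.189 CPM (log2 fold change 10.20 ± 0.41 SE, adjusted p = 0.000258, edgeR). In the rhesus monkey APLNR had 0 UMIs in endothelial barcodes and only 0 and 1 UMIs in the others. Annotation and species cannot be told apart for it. IL1R1, the interleukin-1 receptor, was called higher in both (log2 fold changes 4.13 and 4.33). In rhesus monkey 1 it had only 1 UMI in the endothelial sum, at 3.47 against 2.61 CPM. In rhesus monkey 2 it was at 79.2 against 2.10 CPM.

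Capillary genes were led by GPIHBP1, which anchors lipoprotein lipase on the capillary wall, at 621 and 407 CPM against 6.73 and 6.67 CPM in the baboon (log2 fold change 6.02 ± 0.39 SE, adjusted p = 0.0005, edgeR) and at 361 and 1464 CPM against 0.700 and 10.9 CPM in the rhesus monkey (log2 fold change 7.38 ± 1.28 SE, adjusted p = 0.0131, edgeR). RGCC, a cell cycle regulator of capillary endothelium, and CD36, a fatty acid receptor, were called higher in both, with log2 fold changes of 5.89 and 4.78 for RGCC and of 4.21 and 4.36 for CD36. MFSD2A, the lysolipid carrier that marks endothelium of the blood-brain barrier, was called lower in both, at 3.79 and 21.8 CPM against 48.6 and 83.2 CPM in the baboon (log2 fold change -2.52 ± 0.59 SE, adjusted p = 0.0368, edgeR) and at 3.47 and 4.66 CPM against 23.3 and 35.2 CPM in the rhesus monkey (log2 fold change -2.74 ± 0.52 SE, adjusted p = 0.0202, edgeR). The gap was narrower in baboon 2 than in baboon 1. The endothelial sums of MFSD2A held only 3 and 26 UMIs in the baboon and 1 and 10 in the rhesus monkey. FABP5, a fatty acid binding protein, was called higher in the baboon, at 143 and 441 CPM against 34.3 and 20.4 CPM, but its log2 fold change went from 3.13 to -0.79 without the germ-rich barcodes.

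Tip cell genes, active at the front of a growing sprout, were called higher in 9 of 15 in baboons and in 3 of 11 in the rhesus monkey. Of them, 1 and 0 were called lower. Fitted with the animal as a block, 7 of the rhesus genes were called higher. Their medians were 3.11 and 1.27. UNC5B, a netrin receptor, was called in both (log2 fold changes 2.96 and 2.76). In the baboon, ESM1, a proteoglycan of tip cells, was at 32.8 and 26.0 CPM against 0 and 0.0943 CPM (log2 fold change 8.78 ± 0.89 SE, adjusted p = 0.00253, edgeR) and PDGFB, the growth factor that recruits pericytes, at 178 and 179.6 CPM against 5.03 and 7.55 CPM (log2 fold change 4.59 ± 0.31 SE, adjusted p = 0.000561, edgeR), and neither was tested in the rhesus monkey. Lymphatic genes were called higher in 7 of 8 and in 3 of 6. The lymphatic medians were 5.25 and 4.05. LYVE1, the hyaluronan receptor, was at 48.0 and 90.6 CPM against 0.0866 and 0.259 CPM in the baboon (log2 fold change 8.32 ± 0.59 SE, adjusted p = 0.000658, edgeR) and at 52.1 and 83.9 CPM against 1.82 and 0.537 CPM in the rhesus monkey (log2 fold change 5.78 ± 0.71 SE, adjusted p = 0.00387, edgeR). CCL21, the lymphatic chemokine, was at 88.3 and 472 CPM against 0.578 and 1.84 CPM in the baboon (log2 fold change 7.59 ± 0.98 SE, adjusted p = 0.00543, edgeR), higher in baboon 2. PROX1, the master regulator of lymphatic fate, was called higher in the baboon, at 10.1 and 29.4 CPM against 1.65 and 2.78 CPM (log2 fold change 2.93 ± 0.62 SE, adjusted p = 0.027, edgeR). PDPN, a glycoprotein of lymphatic but also of other cells, was called lower in both (log2 fold changes -3.23 and -3.12).

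Seen by barcode, at least 2 arterial genes had a UMI in 61.1% of baboon and 49.7% of rhesus members, against 4.12% and 4.75% of other barcodes. For at least 2 capillary genes the shares were 66.8% and 92.1% against 5.16% and 13.8%, and for at least 2 lymphatic genes 15.1% and 14.3% against 0.673% and 0.222%. Members were deeper than the others, which raises such shares. When 1000 UMIs were drawn per barcode, the capillary shares were 22.8% and 70.8% against 0.323% and 6.18%. The arterial shares were then 18.1% and 16.0% against 1.04% and 1.88%, and the lymphatic ones 2.685% and 1.835% against 0.0514% and 0.0452%. Venous genes separated members least in the rhesus monkey, with 55.2% against 34.1%, and 17.8% against 18.4% at 1000 UMIs.

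**Figure D3:**
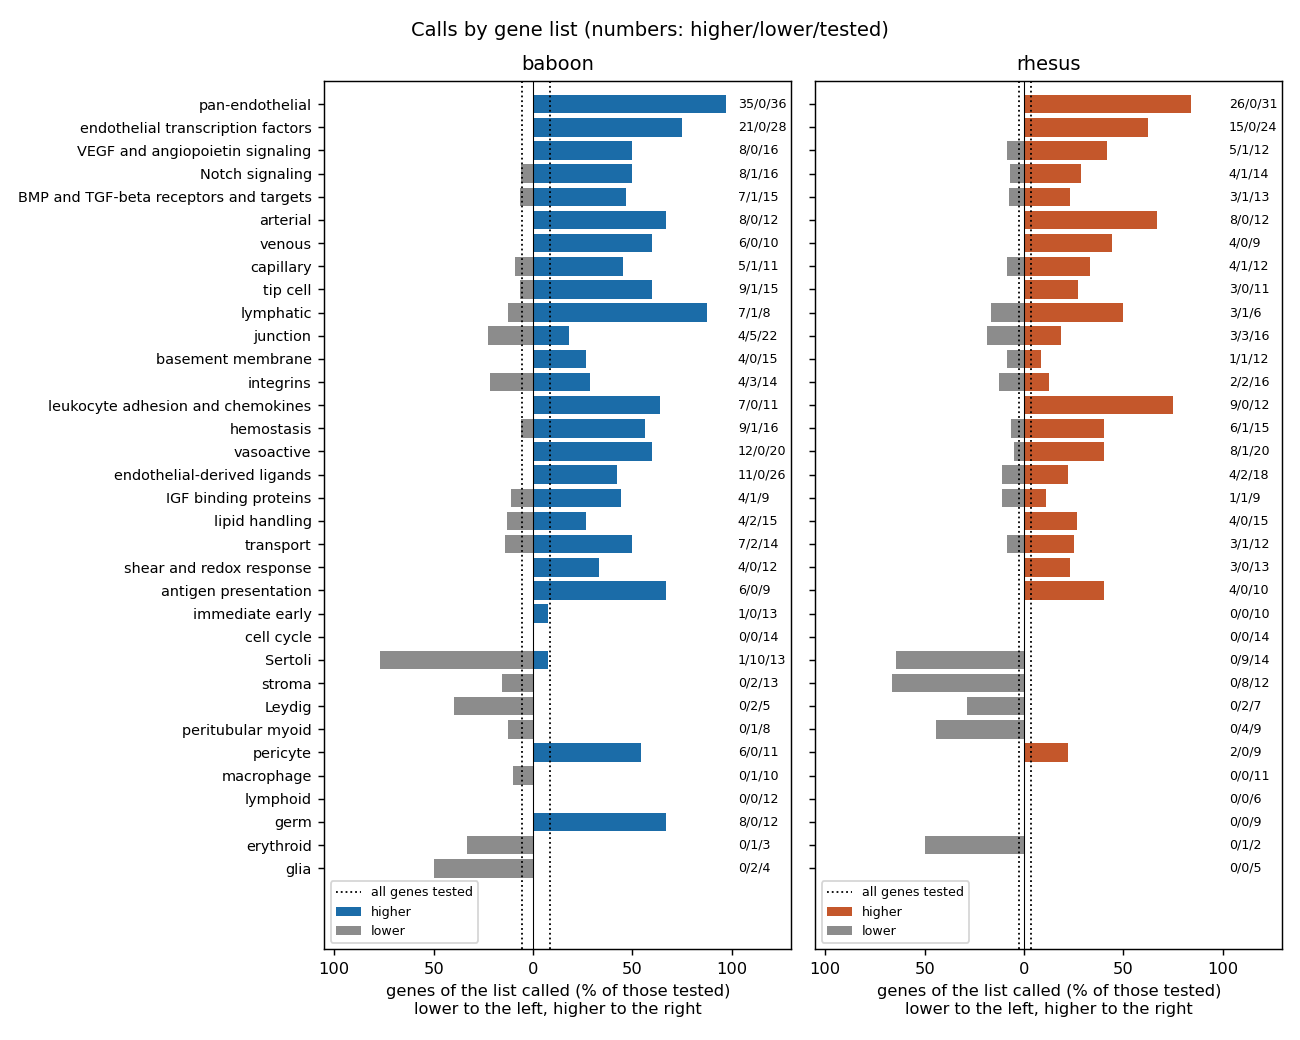
Percent of the tested genes of each list called higher (to the right) or lower (to the left) in endothelial barcodes, for each species, with the numbers called higher, called lower and tested, and dotted lines at the percent of all genes called. Pan-endothelial genes stood farthest to the right, with 35 of 36 in baboons and 26 of 31 in the rhesus monkey, and Sertoli genes to the left, with 10 of 13 and 9 of 14.

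Genes of the vessel surface and barrier moved in both directions. Of the junction list, 4 of 22 were called higher and 5 lower in the baboon, and 3 and 3 of 16 in the rhesus monkey. With animal as a block, 7 and 6 were called higher and 8 and 3 lower. The junction medians, -0.07 and 0.57, were near those of all genes in the baboon. F11R, a junctional adhesion molecule, was called higher in both (log2 fold changes 1.60 and 3.36). CLDN11, the claudin of Sertoli tight junctions, and CLDN3, another epithelial claudin, were called lower in both, with log2 fold changes of -2.57 and -2.90 for CLDN11 and of -3.10 and -3.42 for CLDN3. Medians were 0.98 and 0.30 for basement membrane genes and 0.21 and 0.55 for integrins. HSPG2, the heparan sulfate proteoglycan of basement membranes, was at 469 and 524 CPM against 37.7 and 39.99 CPM in the baboon (log2 fold change 3.42 ± 0.27 SE, adjusted p = 0.000951, edgeR) and at 375 and 735 CPM against 67.3 and 49.7 CPM in the rhesus monkey (log2 fold change 3.17 ± 0.50 SE, adjusted p = 0.00883, edgeR). Of all basement membrane genes, 4 of 15 were called higher in the baboon (7 without germ-rich barcodes) and 1 of 12 in the rhesus monkey. In the block fit by animal, 8 and 3 of these were called higher and 2 and 3 lower. Of the integrins, 4 of 14 and 2 of 16 were higher and 3 and 2 lower, with ITGA5 and ITGA1, receptors of fibronectin and of collagen, higher in both (log2 fold changes 7.30 and 4.76 for ITGA5, 3.81 and 5.65 for ITGA1).

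Genes for leukocyte adhesion were called higher in 7 of 11 and in 9 of 12. The medians of this list were 3.81 and 3.50, and those of hemostasis genes 1.97 and 1.07. PODXL, a sialomucin of the luminal surface, was at 352 and 273 CPM against 0.866 and 0.377 CPM in the baboon (log2 fold change 8.71 ± 0.57 SE, adjusted p = 0.000512, edgeR) and at 306 and 410.2 CPM against 0.980 and 4.12 CPM in the rhesus monkey (log2 fold change 7.13 ± 0.69 SE, adjusted p = 0.00183, edgeR). ICAM2, a ligand of leukocyte integrins, was called higher in both (log2 fold changes 8.47 and 6.47), as was CX3CL1, fractalkine (5.50 and 3.37). In hemostasis, 9 of 16 and 6 of 15 were called higher and 1 and 1 lower (2 and 2 lower with the animal as a block). F8, clotting factor VIII, was at 31.6 and 24.3 CPM against 0.347 and 0.401 CPM in the baboon (log2 fold change 5.95 ± 0.53 SE, adjusted p = 0.00166, edgeR) and at 76.4 and 147 CPM against 4.15 and 4.56 CPM in the rhesus monkey (log2 fold change 4.67 ± 0.49 SE, adjusted p = 0.00225, edgeR). THBD, thrombomodulin, and ENTPD1, which breaks down ATP, were called higher in both (log2 fold changes 4.50 and 3.05 for THBD, 1.94 and 4.17 for ENTPD1).

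Genes that set vessel tone were called higher in 12 of 20 in baboons and in 8 of 20 in the rhesus monkey, and 0 and 1 were called lower. Fitted with the animal as a block, 14 and 13 were called higher and 3 and 4 lower. The list medians were 3.05 and 1.71. CAV1, the coat protein of caveolae, was at 1170 and 727 CPM against 5.66 and 5.12 CPM in the baboon (log2 fold change 7.21 ± 0.45 SE, adjusted p = 0.000455, edgeR) and at 403 and 679.6 CPM against 14.7 and 70.6 CPM in the rhesus monkey (log2 fold change 3.69 ± 0.68 SE, adjusted p = 0.0175, edgeR). NOS3, endothelial nitric oxide synthase, was at 29.0 and 52.0 CPM against 0.462 and 0.448 CPM and at 17.4 and 34.0 CPM against 0.934 and 1.21 CPM (log2 fold changes 6.21 and 4.63). Both genes were without overlap between the groups. CALCRL and RAMP3, which together form an adrenomedullin receptor, were called higher in both, with log2 fold changes of 5.64 and 4.88 for CALCRL and of 7.15 and 6.53 for RAMP3. PTGS2, the inducible cyclooxygenase, was called higher as well (7.72 and 5.12).

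Ligands that endothelium sends to its neighbors were called higher in 11 of 26 in baboons and in 4 of 18 in the rhesus monkey. Of them, 0 and 2 were called lower. In the block fit by animal, 13 and 5 were called higher and 4 and 2 lower. Medians were 1.39 and 0.79 for these ligands and 0.25 and 1.06 for the IGF binding proteins. TGFB1, a growth factor that acts on mural cells among others, was called in both (log2 fold changes 3.30 and 1.98). KITLG, the ligand of the KIT receptor of differentiating spermatogonia and a gene of the Sertoli list, was at 89.6 and 84.8 CPM against 10.6 and 13.8 CPM in the baboon (log2 fold change 2.59 ± 0.28 SE, adjusted p = 0.00308, edgeR) and at 13.9 and 1.40 CPM against 2.38 and 0.179 CPM in the rhesus monkey, where it was not called. GDNF, the growth factor of spermatogonial stem cells, was at 0 and 8.39 CPM against 2.17 and 0.637 CPM in the baboon and was not called (log2 fold change 1.41 ± 1.21 SE, adjusted p = 0.492, edgeR), nor was it tested in the rhesus monkey. IGFBP7, a secreted binding protein abundant in vessels, was at 3481 and 3059 CPM against 102 and 259 CPM in the baboon (log2 fold change 3.96 ± 0.49 SE, adjusted p = 0.00501, edgeR) and at 4326 and 1480 CPM against 1354 and 779 CPM in the rhesus monkey (not called, log2 fold change 1.26 ± 0.56 SE, adjusted p = 0.281, edgeR, and adjusted p = 0.0265 with the animal as a block). Of the IGF binding list, 4 of 9 and 1 of 9 were called higher. IGF1R was called lower in the baboon (-2.39) and IGFBP5 in the rhesus monkey (-3.54). With the animal as a block, 4 and 4 of the list were called higher and 3 and 1 lower.

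Transporters of the blood-tissue barrier included ABCB1, the drug efflux pump, at 193 and 240 CPM against 1.42 and 1.25 CPM in the baboon (log2 fold change 7.08 ± 0.34 SE, adjusted p = 0.000258, edgeR) and at 66.0 and 56.9 CPM against 0.840 and 0.984 CPM in the rhesus monkey (log2 fold change 5.96 ± 0.45 SE, adjusted p = 0.000928, edgeR). Every endothelial sum of ABCB1 was above every other sum. Of the transport list, 7 of 14 were called higher in baboons and 3 of 12 in the rhesus monkey, and 2 and 1 were called lower. Its medians were 1.70 and 0.13, those of lipid handling 0.45 and 0.80 and those of the shear and redox list 0.94 and 0.89. AQP1, the water channel, was called higher in the baboon, at 266 and 264 CPM against 0.751 and 0.778 CPM (log2 fold change 8.18 ± 0.33 SE, adjusted p = 0.000258, edgeR). SLC2A1, the glucose carrier of brain endothelium, had 0 UMIs in baboon endothelial barcodes. Of the lipid handling list, 4 of 15 and 4 of 15 were called higher and 2 and 0 lower. With the animal as a block, 5 and 6 of these were called higher and 5 and 2 lower. Of the shear and redox list, 4 of 12 and 3 of 13 were called higher and 0 and 0 lower. The block fit called 7 and 6 of this list higher and 3 and 1 lower. PIEZO1, the channel that senses flow, was called higher in both (log2 fold changes 7.05 and 5.40), as was KLF4, a factor induced by flow (2.66 and 1.44).

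Antigen presentation was high and uneven between animals. Of this list 6 of 9 were called higher in baboons and 4 of 10 in the rhesus monkey (8 and 10 with the animal as a block). The medians were 2.59 and 2.40 on the log2 scale. CD74, the invariant chain of MHC class II, was at 5298 and 732 CPM against 27.3 and 19.9 CPM in the baboon (log2 fold change 6.77 ± 1.05 SE, adjusted p = 0.00976, edgeR) and at 6704 and 1589 CPM against 232 and 86.9 CPM in the rhesus monkey (log2 fold change 4.48 ± 0.80 SE, adjusted p = 0.0154, edgeR). Animal 1 was the higher of each species, and in each all endothelial sums lay above the others. CIITA, the master regulator of MHC class II, was at 39.1 and 6.71 CPM against 0.116 and 0.165 CPM and at 41.7 and 20.5 CPM against 0.280 and 0.403 CPM (log2 fold changes 7.02 and 6.28). Macrophages also express CD74 and CIITA, and the 12 genes of the macrophage list that were given summed to 12.6 and 11.8 CPM against 31.1 and 49.0 CPM in the baboon, with C1QC, CD68, LYZ and MARCO at 0 in endothelial barcodes. In the rhesus monkey the macrophage list summed to 72.9 and 183 CPM against 194 and 281 CPM. By edgeR, 1 of 10 macrophage genes was called lower for baboons and none of 11 for the rhesus monkey (4 and 1 at an unadjusted p under 0.05, 1 and 0 by DESeq2, 4 and 2 with the animal as a block). Within the rhesus members, macrophage genes summed to 579.7 CPM in the largest cluster of those described below, against 23.4 to 78.9 CPM in the others. The part of macrophage RNA in the CD74 and CIITA levels was not tested.

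No cell cycle gene was called by edgeR among 14 in the baboon (2 higher at an unadjusted p under 0.05, 0 by DESeq2) or among 14 in the rhesus monkey (1 lower at an unadjusted p under 0.05, 0 by DESeq2). With animal as a block, 2 baboon genes were called higher, in a fit that called 5873 of all 16563 genes in either direction. The median log2 fold change was 0.04 in the baboon and -0.25 for rhesus, and -1.08 and -0.85 without the germ-rich barcodes. At least 2 cell cycle genes had a UMI in 17.4% of baboon and 10.6% of rhesus members, against 6.67% and 3.96% of other barcodes. At 1000 UMIs per barcode, at least 2 cell cycle genes had a UMI in 1.01% of baboon members against 0.865% of other barcodes, and in 1.28% against 1.43% in the rhesus monkey. Among immediate early genes, which rise with tissue handling, ZFP36 was called higher in the baboon (log2 fold change 2.81) and no other of 13 was called by edgeR (2 higher by DESeq2, and 3 higher and 4 lower with the animal as a block). None of 10 was called by edgeR in the rhesus monkey, where 5 were lower at an unadjusted p under 0.05 and 2 by DESeq2, and 4 with the animal as a block.

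Among lists of other testis cells, Sertoli genes were called lower in 10 of 13 and in 9 of 14, and the list summed to 769.7 and 1727 CPM against 8359 and 8113 CPM in the baboon and to 535 and 404 CPM against 5076 and 4484 CPM in the rhesus monkey. The Sertoli medians were -3.15 and -2.92 and the stroma medians -1.69 and -3.27. AMH, the Sertoli hormone of the immature testis, was at 377 and 1236 CPM against 6129 and 6599 CPM in the baboon (log2 fold change -3.25 ± 0.58 SE, adjusted p = 0.015, edgeR) and at 253 and 184 CPM against 3122 and 2459 CPM in the rhesus monkey (log2 fold change -3.81 ± 0.44 SE, adjusted p = 0.00295, edgeR). It was still measured in all endothelial sums, higher in baboon 2 than in baboon 1. DCN, a proteoglycan of stroma, was called lower at 27.8 and 132 CPM against 288 and 682 CPM in the baboon (log2 fold change -2.83 ± 0.70 SE, adjusted p = 0.0416, edgeR) and at 253 and 126 CPM against 3245 and 1813 CPM in the rhesus monkey (log2 fold change -3.93 ± 0.55 SE, adjusted p = 0.00591, edgeR). Stroma genes were called lower in 2 of 13 in baboons and in 8 of 12 in the rhesus monkey, and without germ-rich barcodes in 0 and 10. With all members, 7 in the baboon were lower at an unadjusted p under 0.05 and 6 by DESeq2, and with the animal as a block 10 were lower and 1 was higher. Their sum was 688 and 1088 CPM against 886 and 2503 CPM in the baboon and 2350 and 13040 CPM against 10640 and 12400 CPM in the rhesus monkey, where IGF2, a fetal growth factor, made up most of the endothelial sum of animal 2, at 1035 and 12230 CPM against 4319 and 6622 CPM.

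Of the shorter lists, edgeR called lower 2 of 5 and 2 of 7 Leydig genes in the baboon and the rhesus monkey, 1 of 8 and 4 of 9 genes of peritubular myoid cells, and 1 of 3 and 1 of 2 erythroid genes, of which HBB was the one called. In the block fit by animal, 4 and 5 Leydig genes and 5 and 6 myoid genes were called lower.

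Genes of pericytes, the cells that wrap capillaries, were called higher in 6 of 11 in baboons and in 2 of 9 in the rhesus monkey, and summed to 1608 and 605 CPM against 101 and 73.8 CPM and to 1354 and 591 CPM against 180 and 478 CPM. Fitted with the animal as a block, 11 were called higher in the baboon, and 2 higher and 1 lower in the rhesus monkey. The part of doublets and of free RNA in these levels was not tested. The pericyte medians were 2.55 and 1.77. RGS5, the best known pericyte gene, was at 984 and 213 CPM against 31.2 and 17.0 CPM in the baboon (log2 fold change 4.39 ± 0.81 SE, adjusted p = 0.0168, edgeR), and at 538 and 7.92 CPM against 10.7 and 97.1 CPM in the rhesus monkey, where it was not called. Animal 1 held more of it in both species. Without barcodes that held at least 3 genes of another cell type, 2 and 1 pericyte genes were called higher and 0 and 4 lower, a removal that lowers these genes by construction. In this removal, the baboon genes called higher were ADGRF5 and MCAM, and the rhesus gene was MCAM. ADGRF5, an adhesion receptor found in endothelium as well as in the pericyte list, was called higher in both species (log2 fold changes 7.44 and 6.92). Without the germ-rich barcodes, the 2 pericyte genes called higher in the rhesus monkey were ADGRF5 and MCAM (log2 fold changes 7.10 and 3.30). RGS5, HIGD1B, KCNJ8 and PDGFRB were not called in that setting.

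Germ cell genes depended on the germ-rich members. In the baboon, 8 of 12 were called higher with all members, 0 higher and 2 lower without the germ-rich ones, and 0 higher when at least 4 rule genes were required. PIWIL4, a gene of undifferentiated spermatogonia, had a log2 fold change of 3.14 with all members and of -1.76 without the germ-rich ones. In the rhesus monkey none of 9 was called by edgeR or by DESeq2, with 1 lower at an unadjusted p under 0.05, and 1 higher and 1 lower with the animal as a block. Of lymphoid genes none was called by edgeR among 12 in the baboon (1 higher at an unadjusted p under 0.05, 1 by DESeq2, 1 with the animal as a block) or among 6 in the rhesus monkey (0 and 0).

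Genes that no list held were also found. The 10 with the widest gap in both species were PCDH12, DIPK2B, ZNF366, NR5A2, USHBP1, FAM167B, GRAP, ARHGAP27, CASP10 and ADCY4. PCDH12, a protocadherin of endothelial junctions, was at 54.3 and 40.3 CPM against 0.144 and 0 CPM in the baboon (log2 fold change 9.08 ± 0.92 SE, adjusted p = 0.00253, edgeR) and at 118 and 61.1 CPM against 0.233 and 0.403 CPM in the rhesus monkey (log2 fold change 7.93 ± 0.56 SE, adjusted p = 0.000928, edgeR). NR5A2, a nuclear receptor known from liver, pancreas and ovary, was at 51.7 and 57.1 CPM against 0.0578 and 0.118 CPM in the baboon (log2 fold change 8.90 ± 0.47 SE, adjusted p = 0.000337, edgeR) and at 34.7 and 42.0 CPM against 0.187 and 0.447 CPM in the rhesus monkey (log2 fold change 6.85 ± 0.62 SE, adjusted p = 0.00133, edgeR). The 10 were picked among genes called higher in both species, higher in both animals of each, and with at least 50 UMIs in the endothelial sums of each. PCDH12 and NR5A2 were without overlap between the groups in both species, which after this choice is a description only. The log2 fold changes of the other 8 were between 6.25 and 8.21.

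The species were compared by testing whether the endothelial enrichment differed, over 12493 symbols in both tables, and 6 genes were called (0.048%). With DESeq2 118 were called, with the animal as a block 720 and without germ-rich barcodes 14. With 2 rule genes required, and without library 1A of baboon 1, the library of baboon 2 or that of rhesus monkey 1, edgeR called 0 (1107, 965, 716 and 1199 at an unadjusted p under 0.05). CHST7, a sulfotransferase, was at 29.0 and 46.1 CPM against 59.1 and 76.4 CPM in the baboon and at 48.6 and 72.7 CPM against 5.23 and 6.31 CPM in the rhesus monkey. NUAK1, a kinase of cell adhesion, was at 167 and 175 CPM against 26.5 and 29.3 CPM and at 219 and 301 CPM against 4.67 and 4.65 CPM, so that it was enriched in both species and more so in the rhesus monkey. ETS2, an ETS factor, was at 193 and 215 CPM against 2.66 and 4.50 CPM and at 83.3 and 39.2 CPM against 11.4 and 14.0 CPM, more enriched in the baboon. UBE4B and MGLL, a ubiquitin ligase and a lipase, were the other genes with a larger enrichment in the rhesus monkey, and C1QTNF4 was the other called with a larger one in the baboon. The baboon fold change of C1QTNF4 depended on the germ-rich barcodes, at 2.00 with them and -2.59 without (log2), and the difference between the species was not called without them (adjusted p = 0.992, edgeR). Counts of a symbol depend on each genome's gene models, and annotation and species cannot be told apart.

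**Figure D4:**
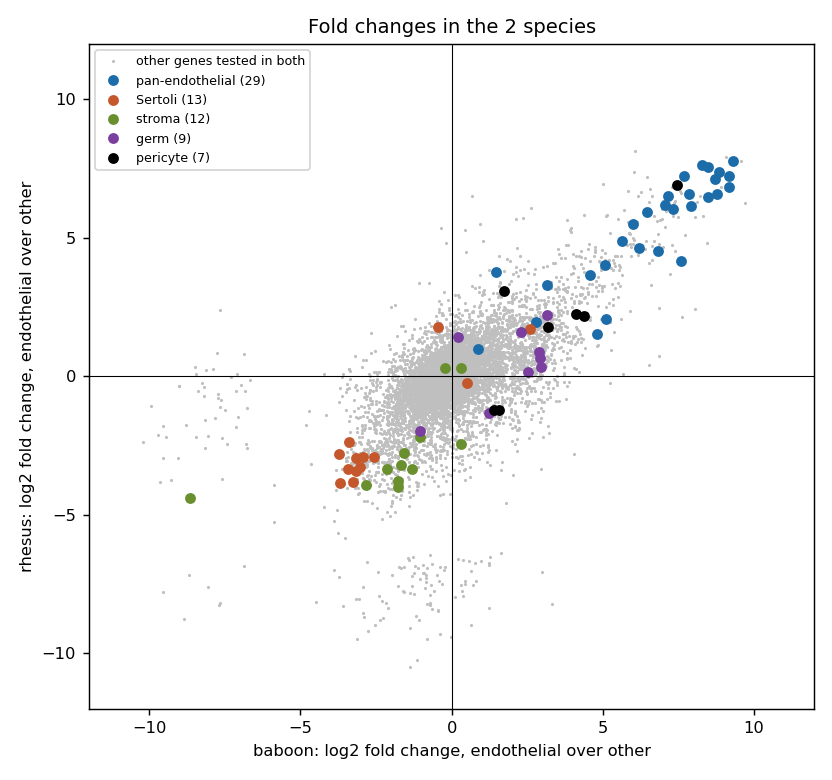
Log2 fold change of endothelial over other barcodes in the baboon (x axis) and in the rhesus monkey (y axis) for genes tested in both, in grey, with pan-endothelial, Sertoli, stroma, germ and pericyte genes in color. Pan-endothelial genes lay at high values in both species and Sertoli genes at low values in both, and fold changes of genes with 0 UMIs in the endothelial sums depend on the prior count.

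Clusters of the members, given as a description because the same counts built them, separated kinds of vessel. In the baboon, the 55 barcodes of an arterial-like cluster (20 and 35 per animal) had GJA4 at 478 against 66.6 CPM in other clusters, SEMA3G at 210.2 against 11.6 CPM and SLC6A6, the taurine carrier, at 308 against 14.1 CPM. A venous-like cluster of 50 barcodes (35 and 15) had ACKR1 at 324 against 22.3 CPM, SELE at 335 against 18.8 CPM and IL1R1 at 159 against 12.3 CPM, and the interferon-induced genes UBD and CXCL10 among its leading genes. The largest cluster, of 98 barcodes (51 and 47), was led by EDNRB at 315 against 70.0 CPM and held RGCC at 604 against 173 CPM. All 3 clusters held barcodes of both animals. Over all members, SELE had 4 UMIs in baboon 1 and 121 in baboon 2. Its level in the venous-like cluster thus rested mainly on baboon 2, which gave 15 of the 50 barcodes.

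The remaining baboon clusters carried genes of other cells. A cluster of 38 barcodes had RGS5 at 3075 against 25.3 CPM while its summed pan-endothelial level was 8208 CPM. A cluster of 33 had AMH at 4830 against 240.3 CPM, with a UMI in 87.9% of its barcodes, and the lymphatic genes CCL21 at 2218 against 3.52 CPM and MMRN1 at 177 against 1.76 CPM, each with a UMI in 21.2% of them, and was left without a name. The last, of 24 barcodes, had UTF1, a gene of spermatogonia, at 770.4 against 11.1 CPM, a pan-endothelial level of 280.2 CPM and a median of 18004 UMIs, and 21 of its barcodes had exactly 3 rule genes.

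Rhesus members, 497 of 545 from animal 2, gave 7 clusters. A cluster of 113 barcodes had GJA4 at 218 against 19.7 CPM and SLC6A6 at 315 against 9.58 CPM, and also the pericyte genes RGS5 at 306 against 17.1 CPM and HIGD1B at 62.2 against 0.504 CPM, with the highest pericyte sum of the rhesus clusters (1160 CPM). A cluster of 112 had ACKR1 at 492 against 10.3 CPM, with a UMI in 35.7% of its barcodes, and CCL21 at 82.5 against 0 CPM, with a UMI in 2.68%, all in animal 1, which gave 5 of the 112. The largest, of 184 barcodes, had GPIHBP1 at 2479 against 958 CPM, and macrophage genes among its leading genes, with LYZ at 248 against 7.64 CPM, C1QB at 109.9 against 3.82 CPM, C1QC at 78.3 against 2.73 CPM, TYROBP at 45.0 against 2.18 CPM and CD163 at 38.3 against 1.09 CPM, and was left without a name. Each of these 5 had a UMI in few of its barcodes, from 1.63% for CD163 to 4.89% for LYZ. The clusters led by DCN (43 barcodes), AMH (13) and CKS2 (7) held genes of stroma, Sertoli cells and germ cells, and a cluster of 73 was the deepest of the others, with a median of 7838 UMIs.

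**Figure D5:**
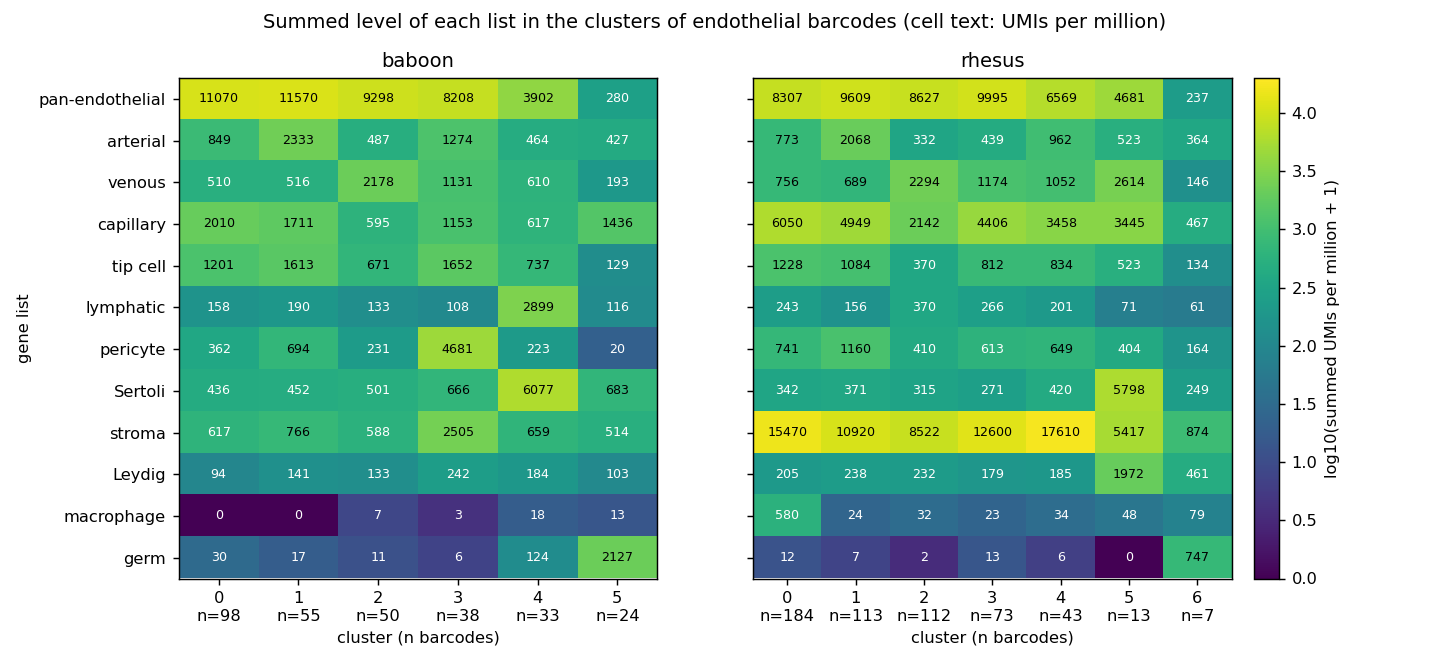
Summed level of gene lists (rows) in the clusters of endothelial barcodes of each species (columns), in CPM as printed in each cell, with color on the scale of log10 (CPM + 1). Arterial genes peaked at 2333 CPM in baboon cluster 1 and venous genes at 2178 CPM in baboon cluster 2, while germ genes stood at 2127 CPM in baboon cluster 5, where pan-endothelial genes were at 280.2 CPM.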

How the data were processed

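Testis cells of 4 animals were measured in 6 libraries of the 10x Genomics 3′ kit. The authors counted UMIs per gene and barcode with Cell Ranger 3.1.0, and the deposited counts cover every barcode of the whitelist, with no cell calling and no mitochondrial gene listed. Baboon files hold 34178 genes (Panubis1.0) and rhesus files 21356 (Mmul_10). Barcodes with at least 1000 UMIs were used. Doublets were kept, and no doublet caller was run. Libraries of an animal were summed by class, and endothelial and other sums were compared in edgeR 4.0.16 by its quasi-likelihood test (R 4.3.3; TMM scaling, its default filter, no block), with Benjamini-Hochberg adjustment over all genes tested and the 10 rule genes left out of the test. On simulated counts with 200 genes changed by a log2 fold change of 2, the test recovered 82.5% for the baboon (15769 genes) and 80.5% for the rhesus monkey (12527 genes). The simulated counts had a fixed dispersion and no animal effect. Only genes above a minimum level in the other barcodes were changed. These shares therefore need not hold for the real counts, and a gene not called may still differ.

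Both sums of a pair came from the same animal. Their deviations from the group means correlated at 0.366 in baboons and 0.389 in the rhesus monkey. The block is therefore given beside many of the counts and calls it changes, but not beside all of them. Alternatives were DESeq2 1.42.0, other scaling, filters, thresholds and depths, sums per library, and leaving out a library. Named genes were up to 5 per list with the largest fold change, first among those called in both species, and outside the lists the 10 highest and 5 lowest called in both. Outside the lists, the highest needed at least 50 UMIs in the endothelial sums of each species. The lowest needed at least 500 UMIs in the other sums of each. Members of each species were clustered on 2000 variable genes, 15 components and 15 neighbors at a resolution of 0.5 (scanpy 1.11.5, leidenalg 0.10.2). The members, the gene lists and the rule were chosen with earlier results of these data known. The tool versions of the authors come from their processing notes.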

Additional observations from a re-analysis of the deposited data

Results flagged for a closer look

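The endothelial enrichment differed between the species for 6 genes, tested with the species by class term of edgeR on 8 sums of 4 animals. The difference, as the log2 fold change in the rhesus monkey minus that in the baboon, was 4.37 ± 0.52 SE for CHST7 (adjusted p = 0.0424), 4.87 ± 0.64 for UBE4B (adjusted p = 0.0424), 3.25 ± 0.45 for NUAK1 (adjusted p = 0.0435) and 4.62 ± 0.67 for MGLL (adjusted p = 0.0499). It was -3.98 ± 0.51 for C1QTNF4 (adjusted p = 0.0424) and -3.68 ± 0.51 for ETS2 (adjusted p = 0.0435). CHST7 had a log2 fold change of -1.08 in the baboon and of 3.39 in the rhesus monkey, whereas ETS2 was enriched in both, at 5.59 and 2.07. UBE4B, a ubiquitin ligase, was at 13.9 and 26.9 CPM against 20.1 and 19.0 CPM in the baboon and at 66.0 and 114 CPM against 2.24 and 4.29 CPM in the rhesus monkey. MGLL, the lipase of monoglycerides, was at 175 and 159 CPM against 84.5 and 124 CPM and at 83.3 and 23.8 CPM against 1.26 and 0.984 CPM. C1QTNF4 was at 45.4 and 68.0 CPM against 10.1 and 14.1 CPM and at 13.9 and 12.1 CPM against 42.3 and 47.2 CPM, and without the germ-rich barcodes its difference was -0.70 (adjusted p = 0.992). The part of gene models in these differences was not tested.

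Below the depth used in the comparisons, 21 baboon and 43 rhesus barcodes with at least 500 and under 1000 UMIs also held at least 3 of the rule genes.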

How the results depend on the processing

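With the animal as a replicate block, as the pairing of sums by animal allows, 5873 genes were called in the baboon, 2239 in the rhesus monkey and 720 for the species difference, against 2352, 745 and 6. With no filter on low counts these were 4092, 1530 and 36, and with libraries as samples, which treats libraries of 1 animal as replicates, 4518, 2483 and 486. At 1000 UMIs per barcode they were 635, 720 and 3. Requiring 2 rule genes gave 434 in the rhesus monkey and 0 for the species difference (1107 at an unadjusted p under 0.05), and requiring 4 gave 12 for the difference. Without barcodes that hold genes of another cell type, 1468 were called in the rhesus monkey and 76 for the difference, which was 118 with DESeq2 and 14 without germ-rich barcodes. Removing barcodes with genes of another cell type left 14 endothelial barcodes of rhesus monkey 1 and 284 of rhesus monkey 2. Leaving out a library gave 1897 to 2295 genes in the baboon, 517 to 655 in the rhesus monkey and 0 to 6 for the difference. It was 0 without library 1A of baboon 1, the library of baboon 2 or that of rhesus monkey 1 (965, 716 and 1199 at an unadjusted p under 0.05), where a lone animal is assumed to vary like the others. Leaving out the only library of an animal gave no count within its species. Shares of endothelial barcodes ran from 1.01 to 1.59% in the baboon and from 2.19 to 4.06% in the rhesus monkey without a library, and the rhesus mean at 2000 UMIs or more was 5.69% ± 6.44 (SD, n = 2). The cause of these moves was not tested, apart from the number of genes tested and samples left.

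Of 1981 values of 125 named genes in the baboon, 1901 kept their direction and side of the threshold, as did 1565 of 1645 values of 104 genes in the rhesus monkey and 70 of 114 for the species difference. In the baboon, log2 fold changes that changed sign were, without mixed barcodes, -1.78 for FABP5, -7.49 for KCNJ8, -0.50 for PIWIL4, -9.55 for SOHLH1, -9.21 for L1TD1, -9.30 for DND1 and -2.89 for C1QTNF4. Without germ-rich barcodes they were -0.79 for FABP5, -1.76 for PIWIL4, -9.56 for SOHLH1, -9.22 for L1TD1, -2.58 for DND1 and -2.59 for C1QTNF4. With 4 rule genes they were -1.26 for PIWIL4, -0.090 for DND1 and -0.33 for C1QTNF4, and at 1000 UMIs -2.10 for FABP5 and -8.99 for C1QTNF4. In the rhesus monkey they were -2.56 for RGS5, -9.34 for HIGD1B and -10.31 for SOHLH1 without mixed barcodes, and 1.73 for C1QC with 2 rule genes. Removing barcodes by germ or pericyte genes lowers those genes by construction, and values near -9 or -10 come from sums with few or 0 UMIs and depend on the prior count.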
